A study of Homo sapiens with 15 samples.

Results

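HSL119 is a compound known here only by its code name, and HUNK is a serine/threonine kinase that was reduced by shRNA in 2 JIMT-1 lines, KD1 and KD2. JIMT-1 is an established HER2-positive human breast cancer line. The comparison set the 3 HSL119 libraries against the mean of the KD1 and KD2 groups of 4 libraries each, so that 11 of the 15 libraries of the study entered it. The title of the series calls the changes by HSL119 equivalent to those by HUNK shRNA, and the comparison asks, gene by gene, where the groups differed. RNA was measured on a fixed panel of 758 genes, of which 615 exceeded a linear value of 20 in 3 or more of the 11 libraries and were tested, while 143 were left out.

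The labels state that HSL119 cells received the compound at 1 ug/ul and that KD1 and KD2 cells were kept in 1 ug/ul puromycin, a selection antibiotic. Both units are printed as the labels write them, and a slip for ug/ml cannot be checked here. All groups shared DMEM with 10% fetal bovine serum, glutamine, penicillin and streptomycin. No treatment time, vehicle, control shRNA or clonal origin is stated, and the labels do not say whether replicates were separate cultures, so that p-values may measure technical spread only. Compound, puromycin, shRNA and line therefore cannot be told apart in any difference below. HUNK itself is not on the panel, so its knockdown could not be checked.

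HER2 (ERBB2) is a receptor tyrosine kinase whose signal passes through the RAS-ERK and PI3K-AKT pathways. ERK activity raises transcripts of AP-1 factors such as FOSL1 and JUN, and also those of its own brakes, the dual-specificity phosphatases DUSP4 and DUSP6 and the Sprouty proteins. Epithelial-mesenchymal transition (EMT) is a programme in which epithelial cells lose junction proteins and gain vimentin and the transcription factors SNAI1 and SNAI2.

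Total recovered counts ran from 1361855 to 1466439 in HSL119 libraries and from 1442964 to 1561639 in knockdown libraries. HSL119 replicate 2 stood apart at low levels, with 619 genes over a linear value of 20, against 531 and 546 in replicates 1 and 3. In the knockdown lines, replicates 1 and 2 differed from replicates 3 and 4 in the same way in both lines, with SDs of the differences over genes of 0.62 in KD1 and 0.64 in KD2 on the log2 scale. Within these pairs the libraries were nearly alike, with a chi-square over its degrees of freedom of 1.17 to 1.36 in 3 of the 4 pairs, against 21.5 between KD2 replicates 3 and 4. Each call below was therefore also required with the knockdown pairs averaged. Between HSL119 libraries, the same chi-square ratio was 13.9 and 17.6 for replicate 1 against replicates 2 and 3. It was 3.96 between replicates 2 and 3, so over the panel replicate 1 stood farthest from the rest. The 6 JIMT-1 markers on the panel, ERBB2, GRB7, CDH1, KRT7, CLDN4 and CLDN7, summed to linear values of 48928 to 53086 in HSL119 libraries and 40465 to 55314 in knockdown libraries. The T cell markers CD8A and CD8B summed to 102 to 139 in HSL119 libraries and 81 to 110 in knockdown libraries. The macrophage markers CD68, CD163 and CD84 summed to 106 to 115 in HSL119 libraries and 219 to 445 in knockdown libraries, of which CD68 was called lower in HSL119. CD68 made up most of this sum, with log2 levels of 6.55 to 6.79 in HSL119 and 7.68 to 8.73 in the knockdown lines. The other markers lay below a linear value of 20. CD163 went the other way, at 3.46 to 3.67 in HSL119 against 0.08 to 2.65, and CD84 overlapped, at 3.19 to 4.01 against 2.09 to 3.79. The 7 stromal markers on the panel summed to 337 to 371 in HSL119 libraries and 397 to 480 in knockdown libraries. The part of these low signals in the results was not tested. In such bulk RNA, fewer cells of a kind and less RNA per cell cannot be told apart.

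HSL119 and HUNK-knockdown cells differed in a large share of the panel. On the deposited log2 values, 393 of 615 genes (63.9%) passed an adjusted p of 0.05 in limma, 181 higher (29.4%) and 212 lower (34.5%) in HSL119. The split moved with the scale, to 143 higher and 260 lower with the linear values plus 1 and to 223 higher and 173 lower after quantile normalization. A gene is called below only where it passed in the same direction on all 5 scales, both with all libraries and with the knockdown pairs averaged. That left 273 genes (44.4%), 129 higher (21%) and 144 lower (23.4%). HSL119 libraries lay outside the range of all 8 knockdown libraries in 357 genes (58.0%), above it in 164 (26.7%) and below it in 193 (31.4%). In 271 of the 273 called genes (44.1% of those tested), no HSL119 library overlapped a knockdown library.

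The differences were unequal in size between the directions. Over 2-fold, 82 called genes were higher and 94 lower in HSL119; over 8-fold, 4 were higher and 25 lower. Differences are given as HSL119 minus the mean of KD1 and KD2 on the log2 scale, relative to the median difference over all 615 genes, which was -0.08, and are followed by their standard error after ±. Standard errors and the adjusted p-values of single genes come from the fit of all 11 libraries on the deposited values. That fit counts the nearly alike knockdown libraries of a pair as separate, so both may be too small. The SD of the differences over genes was 1.31, against 0.34 for KD1 minus KD2.

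**Figure D1:**
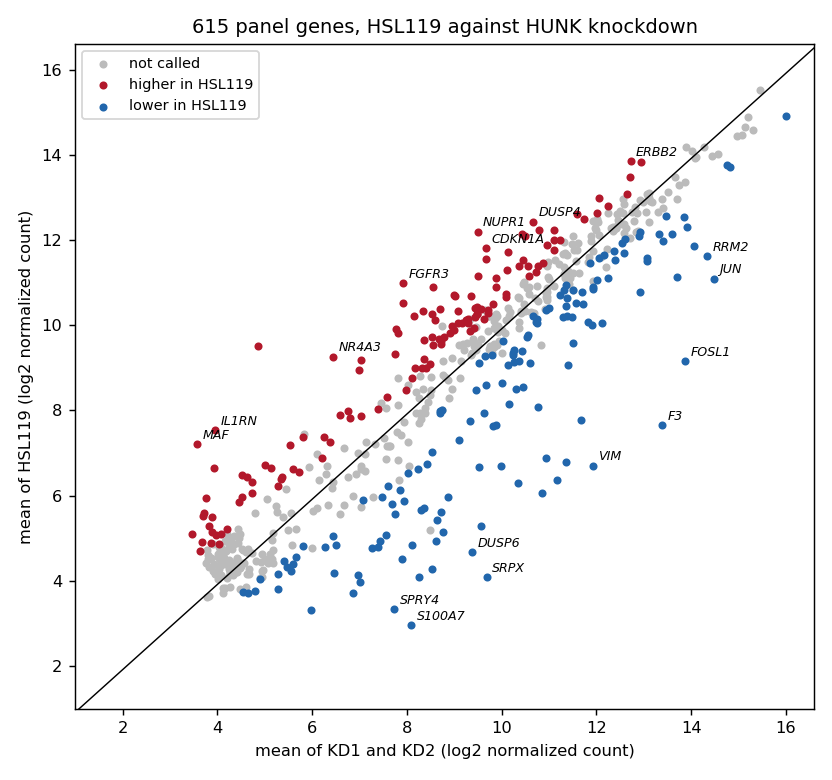
Mean log2 normalized count of each of 615 tested genes in HSL119 (vertical axis) against the mean of KD1 and KD2 (horizontal axis). Red points are the 129 genes called higher in HSL119, blue points the 144 called lower, grey points the rest, and the line marks the median difference of -0.08. The farthest points lie below the line, among them F3, VIM, FOSL1 and DUSP6.

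The promoters of 567 panel genes were found in RefSeq (GRCh38.p14), as 250 bases before to 50 bases after the gene start. A single window was searched per gene, so promoters at any other start of a gene were left out. Whether a window holds the start used in JIMT-1 cells was not tested. The AP-1 motif TGANTCA, searched on both strands, occurred in 7 of 103 promoters of called higher genes (6.80%) and in 5 of 105 of called lower genes (4.76%), beside 6.35% of the panel and 7.76% of all promoters. A match to AP-1 is never a match to the cyclic-AMP response element. That element, TGACGTCA, occurred in 4.85% of promoters of higher genes, 4.76% of those of lower genes and 2.82% of the panel. The CArG box, bound by serum response factor, occurred in 0.97% of promoters of higher genes, 2.86% of those of lower genes and 1.94% of the panel. The promoters of SPRY4, DUSP6 and JUN held none of the 3 motifs in this window. The following windows are shown because they carry an AP-1 match, a choice made after the matches were seen. They are listed for the gene with the largest lower difference, for a gene among the 3 largest higher differences and for ERBB2. The ERBB2 window is the single one searched and may not be the main promoter of HER2. Capitals mark the match, and each sequence runs from 5′ to 3′ on the strand of the gene. F3 lies on the minus strand at chr1:94541710-94542009, IL1RN on the plus strand at chr2:113117721-113118020 and ERBB2 on the plus strand at chr17:39687844-39688143.
F3: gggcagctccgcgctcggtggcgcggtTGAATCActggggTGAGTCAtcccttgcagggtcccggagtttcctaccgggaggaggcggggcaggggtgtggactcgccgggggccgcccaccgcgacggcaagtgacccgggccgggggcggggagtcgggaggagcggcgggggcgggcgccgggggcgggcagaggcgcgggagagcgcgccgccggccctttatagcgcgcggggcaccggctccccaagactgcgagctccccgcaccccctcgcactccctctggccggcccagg
IL1RN: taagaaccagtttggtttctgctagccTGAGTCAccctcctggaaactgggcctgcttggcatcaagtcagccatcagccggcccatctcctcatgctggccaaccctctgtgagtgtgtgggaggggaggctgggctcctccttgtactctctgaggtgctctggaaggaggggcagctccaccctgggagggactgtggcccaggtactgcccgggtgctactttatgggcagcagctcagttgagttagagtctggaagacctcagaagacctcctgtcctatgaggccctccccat
ERBB2: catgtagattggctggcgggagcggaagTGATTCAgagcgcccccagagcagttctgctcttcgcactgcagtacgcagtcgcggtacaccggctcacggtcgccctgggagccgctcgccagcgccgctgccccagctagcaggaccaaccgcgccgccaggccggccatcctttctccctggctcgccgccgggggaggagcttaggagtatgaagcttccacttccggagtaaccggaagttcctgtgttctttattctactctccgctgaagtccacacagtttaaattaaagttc
The F3 window held 2 matches, and the IL1RN and ERBB2 windows 1 each, and F3 was lower while IL1RN and ERBB2 were higher in HSL119.

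Transcription factors and feedback genes below ERK gave some of the largest differences. FOSL1, the AP-1 subunit FRA-1, had log2 levels of 8.94, 9.15 and 9.38 in HSL119, against 13.58, 13.55, 14.31 and 14.31 in KD1 and 13.26, 13.27, 14.22 and 14.43 in KD2. No HSL119 library came within 3 log2 units of a knockdown library, and the difference was -4.63 ± 0.28. JUN, its AP-1 partner, had 10.71, 11.29 and 11.29 in HSL119, against 15.20, 15.16, 13.62 and 13.58 in KD1 and 15.03, 15.01, 13.74 and 14.45 in KD2. All HSL119 values were lower, with a difference of -3.29 ± 0.41, and knockdown replicates 1 and 2 were above replicates 3 and 4 in both lines. FOS, the third AP-1 gene measured, was not called. It ranged from 4.76 to 5.54 in HSL119 and from 5.29 to 10.43 in the knockdown lines, so that the HSL119 values overlapped the lowest knockdown libraries.

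The feedback genes split. DUSP6, which dephosphorylates ERK in the cytoplasm, had 4.52, 5.16 and 4.33 in HSL119, against 8.97, 8.95, 9.31 and 9.36 in KD1 and 8.72, 8.79, 10.004 and 10.84 in KD2. It was lower in every HSL119 library, at -4.62 ± 0.41, and the HSL119 levels lay near the linear value of 20 while KD2 replicate 4 was the highest. SPRY4, a Sprouty protein that restrains receptor signals, had 2.88, 3.46 and 3.68 in HSL119, against 7.39, 7.12, 8.14 and 8.10 in KD1 and 7.23, 7.22, 8.14 and 8.51 in KD2. All HSL119 levels were below a linear value of 20, and the difference was -4.31 ± 0.34.

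DUSP4, the nuclear phosphatase of the same family, ran the other way. Its levels were 12.37, 12.44 and 12.49 in HSL119, against 10.78, 10.71, 11.29 and 11.29 in KD1 and 9.56, 9.61, 10.90 and 11.14 in KD2. Every HSL119 library was above every knockdown library, and the difference was 1.85 ± 0.33. SPRY1 and SPRY2 were not called, with differences of -0.57 and 0.26.

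Of 22 MAPK genes tested, 4 were called higher and 7 lower, with a median difference of -0.06. Here and below, counts by list stand beside 21% of all tested genes called higher and 23.4% called lower. ETV4, an ETS factor induced by ERK, was lower, at -2.26 ± 0.13, and MYC at -2.06 ± 0.11. MAPK10, the JNK3 kinase, was higher by 1.95 ± 0.21 and had low levels, which ranged from 5.49 to 5.70 in HSL119 and from 2.91 to 4.41 in the knockdown lines. CACNA1D, a calcium channel subunit kept here with the MAPK genes, was higher by 1.66 ± 0.34. MAPK3, which encodes the kinase ERK1, was not called, with a difference of 0.36, and the 90% interval of its deposited difference lay inside 1.5-fold.

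**Figure D2:**
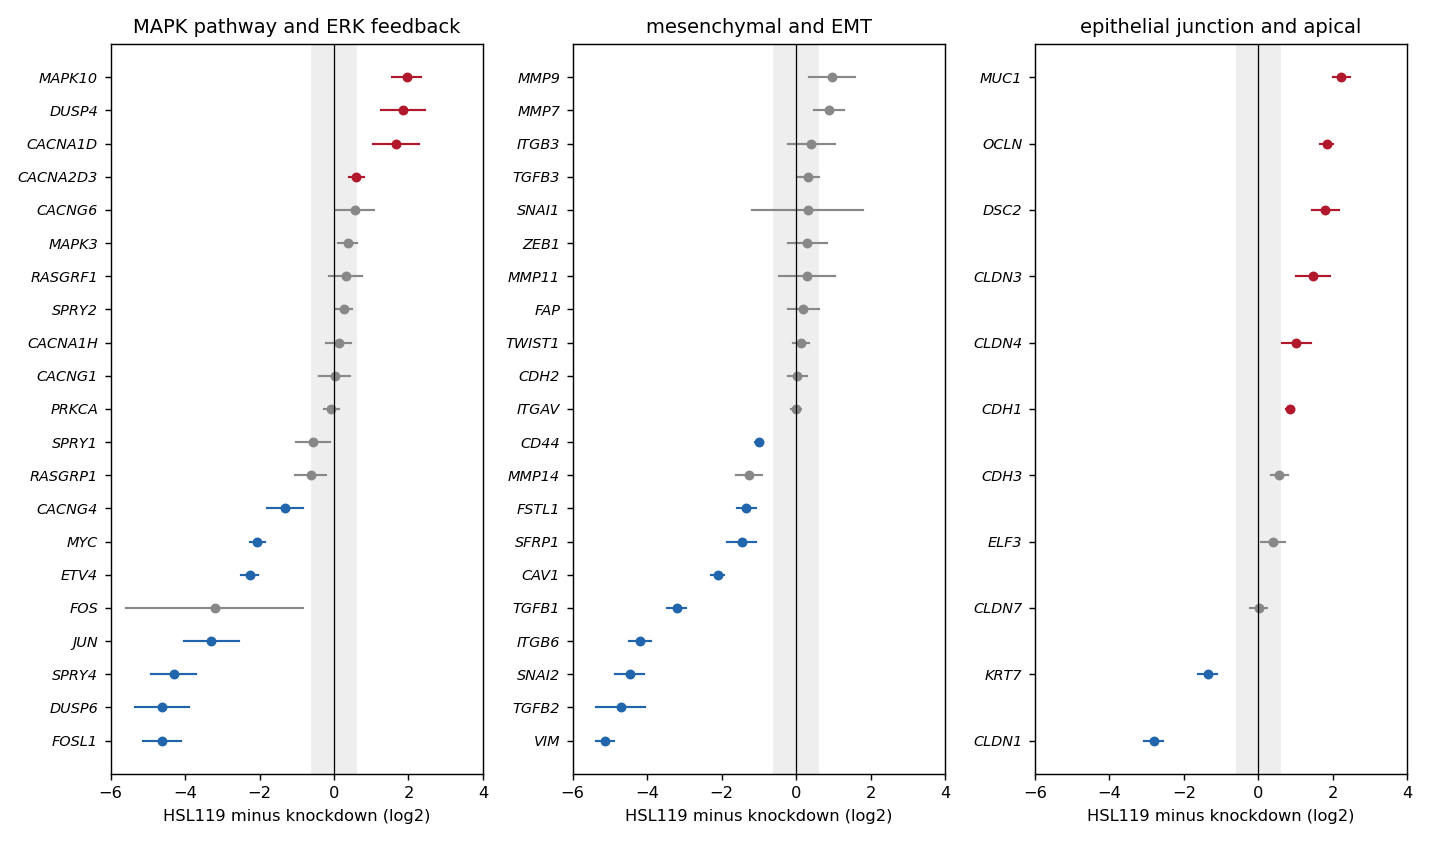
Difference of HSL119 minus the mean of KD1 and KD2 (log2, relative to the median gene) for genes of the MAPK, mesenchymal and epithelial lists, with 90% intervals as bars. Red marks genes called higher in HSL119, blue lower, grey not called, and the shaded band is 1.5-fold either way of the median gene. FOSL1, DUSP6, SPRY4 and JUN lie far to the left while DUSP4 lies to the right.

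Among ERBB genes, the receptor itself was higher in HSL119. ERBB2 had 13.96, 13.80 and 13.78 in HSL119, against 12.70, 12.61, 12.89 and 12.85 in KD1 and 12.56, 12.52, 12.81 and 12.80 in KD2, with no overlap. The difference of 1.21 ± 0.09 amounts to 2.31-fold, limma adjusted p 1.38e-06. AREG, a ligand of EGFR, was the only gene of the 8 tested that was called lower. It ranged from 7.51 to 7.96 in HSL119 and from 9.16 to 9.81 in the knockdown lines, a difference of -1.49 ± 0.14. EGFR (0.01), and GRB7 (0.15), an adaptor beside ERBB2 on the chromosome, were not called. The 90% intervals of the deposited differences of 5 of the 8 genes lay inside 1.5-fold.

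PI3K pathway genes were higher or not called: 6 of 11 higher, none lower, with a median of 0.72. PIK3R1, the main regulatory subunit, had 9.85, 9.70 and 9.62 in HSL119, against 8.44, 8.27, 8.59 and 8.54 in KD1 and 8.51, 8.28, 8.82 and 8.85 in KD2. Every HSL119 library was above every knockdown library, and the difference was 1.28 ± 0.13. PIK3R2, another regulatory subunit, was higher by 0.95 ± 0.11 and PIK3CD, a catalytic subunit, by 0.97 ± 0.18. MTOR and PIK3CA were also called, at 0.72 and 0.67.

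Mesenchymal genes were lower or not called in HSL119: 9 of 21 tested were lower and none higher. VIM, the intermediate filament vimentin, had 6.63, 6.82 and 6.66 in HSL119, against 11.003, 10.97, 11.12 and 11.01 in KD1 and 12.94, 12.94, 13.05 and 12.38 in KD2. The HSL119 libraries lay near 7, KD1 near 11 and KD2 near 13, so that the 3 groups were separate. The difference was -5.14 ± 0.13, a fold of 35.2 lower, limma adjusted p 4.90e-10.

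SNAI2, a transcriptional repressor of E-cadherin, had 6.45, 7.01 and 6.94 in HSL119, against 11.06, 11.03, 11.49 and 11.46 in KD1 and 11.12, 11.10, 11.56 and 12.03 in KD2. Its HSL119 libraries were at least 4 log2 units below all others, with a difference of -4.47 ± 0.21. ITGB6, an integrin subunit that activates latent TGF-beta, was lower, at -4.19 ± 0.17, TGFB2 at -4.71 ± 0.37 and TGFB1 at -3.21 ± 0.15. CAV1, the caveolar coat protein, was lower, at -2.11 ± 0.09, and SFRP1, a secreted Wnt antagonist, at -1.46 ± 0.21. The list did not move as a whole: its median difference was -0.01, and SNAI1 (0.31), TWIST1 (0.14), ZEB1 (0.30) and N-cadherin, CDH2 (0.03), were not called.

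Junction and apical genes were mostly higher in HSL119, with 6 of 11 called higher and 2 lower and a median of 0.86. MUC1, an apical mucin, ranged from 9.85 to 10.04 in HSL119 and from 7.47 to 8.08 in the knockdown lines, without overlap. It was higher by 2.23 ± 0.13, and OCLN, the tight junction protein occludin, by 1.84 ± 0.10. DSC2, a desmosomal cadherin, was higher by 1.80 ± 0.20 and CLDN3 by 1.47 ± 0.25. E-cadherin, CDH1, was higher by 0.86 ± 0.06, and CLDN4 by 1.02 ± 0.21. CLDN1, another claudin, went the other way and ranged from 5.85 to 6.09 in HSL119 and from 8.54 to 9.18 in the knockdown lines, a difference of -2.81 ± 0.14. KRT7, a simple-epithelial keratin, was lower, at -1.36 ± 0.14.

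**Figure D3:**
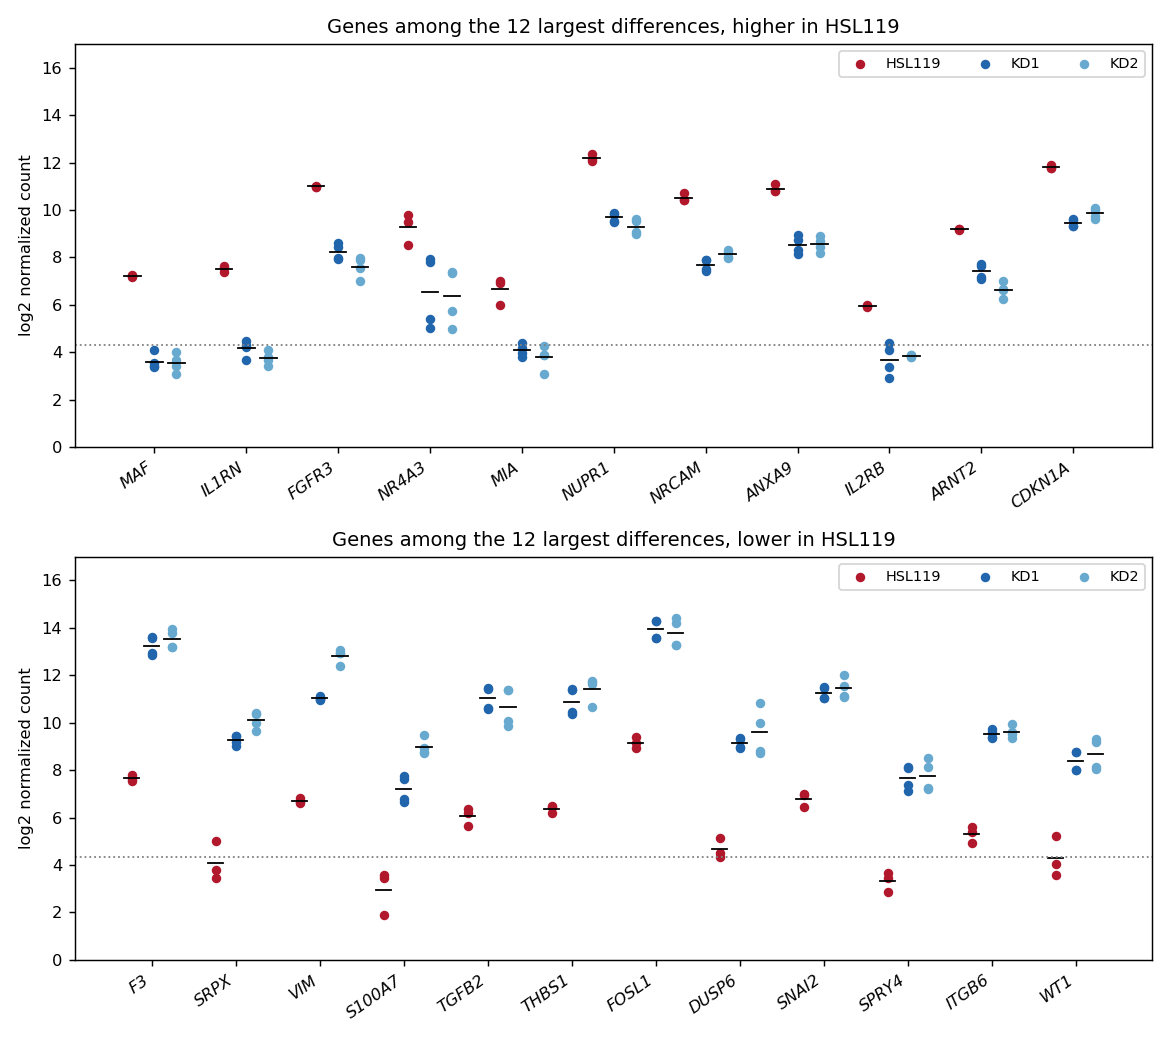
Log2 normalized count of each library for genes among the 12 largest differences higher (top) and lower (bottom) in HSL119, with HSL119 (red) left of KD1 (dark blue) and KD2 (light blue) and group means as bars. The dotted line is a linear value of 20. Only genes whose HSL119 points are separate from all knockdown points were eligible, so the separation seen here was set by the choice.

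Secreted, matrix and coagulation genes held the 2 largest lower differences. F3, tissue factor, which starts coagulation, had 7.78, 7.63 and 7.56 in HSL119, against 12.92, 12.88, 13.61 and 13.59 in KD1 and 13.21, 13.20, 13.95 and 13.79 in KD2. The HSL119 libraries were over 5 log2 units below the lowest knockdown library, and the difference of -5.66 ± 0.21 is 50.4-fold, limma adjusted p 8.57e-09. SRPX, a sushi-repeat protein, was lower, at -5.52 ± 0.29. Its HSL119 levels of 3.45 to 5.01 lie near the linear value of 20. SLPI, a secreted protease inhibitor, was lower, at -3.81 ± 0.12, and THBS1, the matrix protein thrombospondin-1, at -4.71 ± 0.29. Of 8 coagulation and secreted genes, 5 were lower and 1 higher. The higher one was SPP1, osteopontin, whose low levels ranged from 4.68 to 5.35 in HSL119 and from 2.09 to 4.41 in the knockdown lines.

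Genes of the TGF-beta superfamily went both ways. Of 27 genes tested, 5 were higher and 9 lower, with a median of 0.05. Ligands made up most of the lower genes: TGFB1, TGFB2, INHBA, INHBB and BMP7. INHBA, the activin A subunit, had 4.88, 5.22 and 5.36 in HSL119, against 8.50, 8.50, 9.45 and 9.39 in KD1 and 8.14, 8.05, 8.91 and 9.16 in KD2. All HSL119 values were below 6 and all knockdown values above 8, and the difference was -3.53 ± 0.30. The receptors BMPR2, at 1.06 ± 0.06, and ACVR1B, at 0.66 ± 0.08, were higher, as was LTBP1, which binds latent TGF-beta, at 0.68 ± 0.10.

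Wnt genes were mostly lower, 10 of 19, with 1 higher and a median of -0.84. LEF1, a transcription factor that acts with beta-catenin, had 3.68, 5.29 and 3.33 in HSL119, against 7.96, 7.69, 8.39 and 8.60 in KD1 and 8.12, 8.06, 8.53 and 8.72 in KD2. HSL119 replicate 2 was the highest of its group and still below every knockdown library, with a difference of -4.07 ± 0.37. DKK1, a secreted Wnt antagonist, was lower, at -2.96 ± 0.39, and TCF7L1, which mainly represses Wnt targets, at -2.20 ± 0.19. The lower genes thus held ligands, an effector and antagonists of the pathway. FZD7, a Wnt receptor, was the gene called higher, at 0.83 ± 0.10. Of 15 Notch genes, 6 were higher and none lower, with a median of 0.60. They included the receptor NOTCH3 (1.36 ± 0.37, though not called against KD1 alone), the ligand DLL4 (1.32 ± 0.35), the glycosyltransferase MFNG (1.34 ± 0.25) and the regulator DTX4 (1.05 ± 0.09). DLL4 reached at most 5.09 and MFNG at most 5.22 in any of the 11 libraries, close to a linear value of 20.

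Cell cycle genes were lower in part. Of 50 tested, 17 were lower and 4 higher, and 16 had a 90% interval inside 1.5-fold; the median was -0.39. RRM2, a subunit of ribonucleotide reductase, had 11.70, 11.56 and 11.60 in HSL119, against 13.96, 13.92, 14.55 and 14.53 in KD1 and 14.15, 14.13, 14.76 and 14.70 in KD2. HSL119 values were below all others, with a difference of -2.63 ± 0.18. The G1 cyclins CCND1 and CCNE2 were lower, at -1.81 ± 0.39 and -1.72 ± 0.37, and EXO1, a nuclease of DNA repair and replication, at -1.27 ± 0.11.

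The 4 higher cell cycle genes act at or before mitosis: ASPM, a spindle pole protein, at 1.11 ± 0.25, the phosphatase CDC25B at 0.75 ± 0.08, CENPF at 0.71 ± 0.10 and KIF14 at 0.59 ± 0.08. MKI67, the proliferation marker Ki-67, was not called and differed by 0.16. Among 18 CDK inhibitors and DNA damage response targets, 3 were higher and 1 was lower, beside 21% and 23.4% of all tested genes. All 3 higher ones were CDK inhibitors. CDKN1A, p21, had 11.89, 11.78 and 11.77 in HSL119, against 9.63, 9.58, 9.33 and 9.31 in KD1 and 9.63, 9.74, 10.003 and 10.09 in KD2. Its HSL119 libraries were above every knockdown library, with a difference of 2.23 ± 0.11. CDKN1B, p27, was higher by 1.11 ± 0.22 and CDKN2C, p18, by 1.03 ± 0.09. MDM2, a ubiquitin ligase, was not called, at 0.49. The gene called lower was THBS1.

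DNA repair genes went both ways, 3 of 21 higher and 5 lower, beside 21% and 23.4% of all tested genes. ATM, the kinase that senses double-strand breaks, was higher by 1.27 ± 0.09, PMS2, a mismatch repair protein, by 1.21 ± 0.10 and PALB2 by 0.70 ± 0.11. RAD54L, which acts in homologous recombination, was lower, at -1.11 ± 0.08. Of 9 chromatin modifiers, 5 were higher and none lower, with a median of 1.03. They were the acetyltransferases KAT2B (2.09 ± 0.26), EP300 (1.17 ± 0.07) and CREBBP (1.03 ± 0.14), the deacetylase HDAC5 (1.74 ± 0.45) and the methyltransferase NSD1 (1.34 ± 0.25). HIST1H1C, a linker histone, was the gene called lower among 3 histones, at -1.01 ± 0.26.

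**Figure D4:**
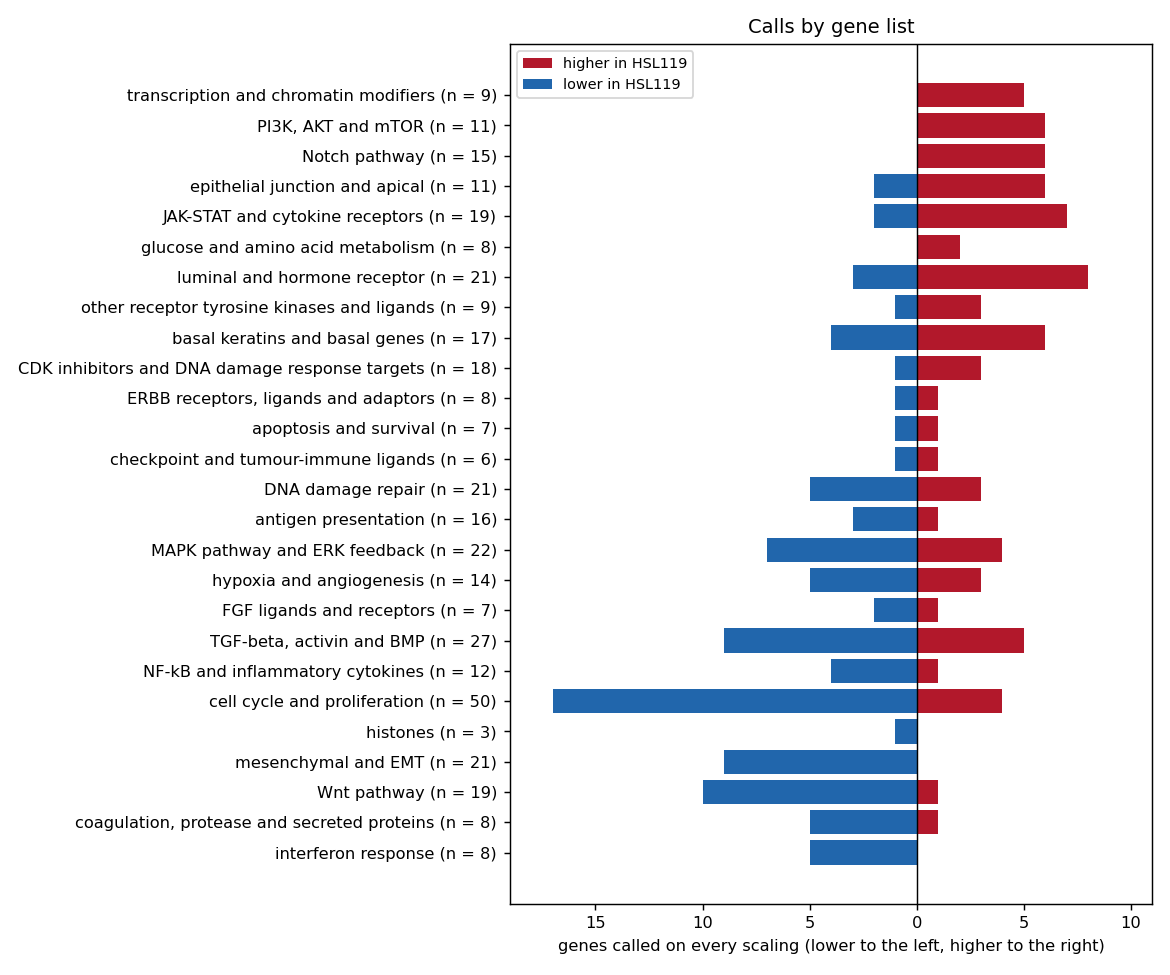
Number of genes called higher (red, to the right) and lower (blue, to the left) in HSL119 in each gene list, with the number tested in brackets; lists share some genes. Over the whole panel 21% of genes were called higher and 23.4% lower. The chromatin, PI3K, Notch and metabolism lists hold higher calls only, and the mesenchymal, histone and interferon lists lower calls only.

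Interferon genes were lower or not called. Of 8 interferon genes, 5 were lower and none higher, with a median of -0.54. OAS3, an antiviral synthetase activated by double-stranded RNA, had 6.11, 6.44 and 6.34 in HSL119, against 9.69, 9.58, 10.27 and 10.37 in KD1 and 10.42, 10.34, 11.14 and 10.98 in KD2. The HSL119 libraries were separate from the others, with a difference of -3.97 ± 0.22. CXCL10, a chemokine, was lower, at -2.58 ± 0.24, and ISG15, a ubiquitin-like protein, at -1.65 ± 0.21.

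Among 12 NF-kB and cytokine genes, 4 were lower: IL6 (-2.76 ± 0.30), the chemokine CCL5 (-2.40 ± 0.27), NFKBIZ (-2.14 ± 0.34) and TNF (-1.42 ± 0.14). The gene called higher was IL1RN, the antagonist of the IL-1 receptor. It had 7.38, 7.65 and 7.57 in HSL119, against 3.67, 4.23, 4.49 and 4.32 in KD1 and 3.40, 3.79, 4.09 and 3.67 in KD2. Knockdown levels were near or below a linear value of 20 in all 8 libraries, and the difference was 3.66 ± 0.20. IL1RN passed the filter only with the help of its HSL119 libraries.

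HLA-B, a class I antigen presenter, was lower, at -1.54 ± 0.15, while HLA-DMA was higher by 0.93 ± 0.13. Of 16 antigen presentation genes, 1 was higher and 3 lower. PDCD1LG2, the PD-1 ligand PD-L2, was lower, at -3.02 ± 0.12, and CD274, PD-L1, was not called (-0.27). Of 19 JAK-STAT genes, 7 were higher and 2 lower, among them IL2RB, a cytokine receptor chain, at 2.27 ± 0.27 and SOCS2, a feedback inhibitor, at 1.62 ± 0.09.

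Other receptors and differentiation genes followed no common direction. FGFR3, an FGF receptor, had 11.03, 10.97 and 10.98 in HSL119, against 8.59, 8.46, 7.99 and 7.93 in KD1 and 7.88, 7.96, 7.54 and 7.004 in KD2. The HSL119 libraries were nearly equal and above all knockdown libraries, with a difference of 3.16 ± 0.21. FGFR4 was lower, at -0.77 ± 0.08, and FGF1 at -1.58 ± 0.18. MET, the receptor of hepatocyte growth factor, was lower, at -1.04 ± 0.09, and IGF1R higher by 1.12 ± 0.08. Luminal genes were called higher in 8 of 21 and lower in 3, led by ANXA9 at 2.43 ± 0.19; GATA3 (0.03) and ESR1 (0.40) were not called. Basal genes were called higher in 6 of 17 and lower in 4. They held both MIA, a secreted protein, at 2.80 ± 0.28 and S100A7, psoriasin, at -5.05 ± 0.38.

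Hypoxia genes were called higher in 3 of 14 and lower in 5, beside 21% and 23.4% of all tested genes. VEGFA, the angiogenic growth factor, was higher by 0.98 ± 0.09, and STC1, stanniocalcin, lower, at -3.18 ± 0.53. Of 8 metabolic genes, 2 were higher, both of serine and glycine synthesis: PHGDH at 1.01 ± 0.07 and SHMT2 at 0.87 ± 0.07. PSAT1, another enzyme of serine synthesis, was not called, at 0.48 ± 0.15. Of 7 apoptosis genes, BAG1, a co-chaperone, was higher by 1.67 ± 0.16 and BCL2L1, which encodes BCL-XL, lower, at -0.53 ± 0.10.

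Several of the largest higher differences stood on no list; in all, 113 called genes did, 54 higher and 59 lower. MAF, a bZIP transcription factor, had 7.28, 7.20 and 7.16 in HSL119, against 4.09, 3.39, 3.42 and 3.54 in KD1 and 3.67, 3.99, 3.41 and 3.09 in KD2. Every HSL119 library was far above the knockdown libraries, and the difference was 3.72 ± 0.21. All knockdown libraries lay below a linear value of 20, so MAF entered the test only through its HSL119 libraries. NUPR1, a stress-induced nuclear protein, was higher by 2.79 ± 0.16, NRCAM, a cell adhesion protein, by 2.70 ± 0.13, and ARNT2, a bHLH-PAS transcription factor, by 2.24 ± 0.18. WT1, a zinc finger transcription factor, was lower, at -4.16 ± 0.39.

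Low levels bear on part of these calls. Of the 129 genes called higher, 17 had a mean linear value under 20 in the knockdown lines. HSL119 replicate 2, the library with more genes above the limit, was the highest of its group in 10 of these 17, against 29 of all 129. Of the 144 genes called lower, 20 had a mean under 20 in HSL119. Folds of these genes depend on values near that limit. Such genes could pass the filter mainly or only through the group in which they are high, as MAF did. Their calls, and the list counts that hold them, are therefore partly favoured by the filter. Without HSL119 replicate 2, 216 genes were called in all, 208 of them among the 273.

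Some called genes depended on which knockdown replicates were used. In 9 called genes, 5 higher and 4 lower, replicates 3 and 4 differed from replicates 1 and 2 by over 2-fold in both knockdown lines. NR4A3, an orphan nuclear receptor induced early by many stimuli, had 8.52, 9.51 and 9.77 in HSL119, against 7.79, 7.94, 5.01 and 5.40 in KD1 and 7.34, 7.38, 4.998 and 5.76 in KD2. HSL119 libraries were highest, but KD1 replicates 1 and 2 came within 1 log2 unit of HSL119 replicate 1, and the difference of 2.90 ± 0.74 had the widest error among the called genes that are named here. HDAC5 averaged 11.15 in HSL119, against 10.20 in knockdown replicates 1 and 2 and 8.80 in replicates 3 and 4. SNAI1, which was not called, averaged 9.43 in HSL119 and differed from knockdown replicates 1 and 2 by -1.15 and from replicates 3 and 4 by 1.60 on the deposited log2 scale, so that its direction depended on the replicates. The cause of the split between knockdown replicates was not tested, since no label names it.

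**Figure D5:**
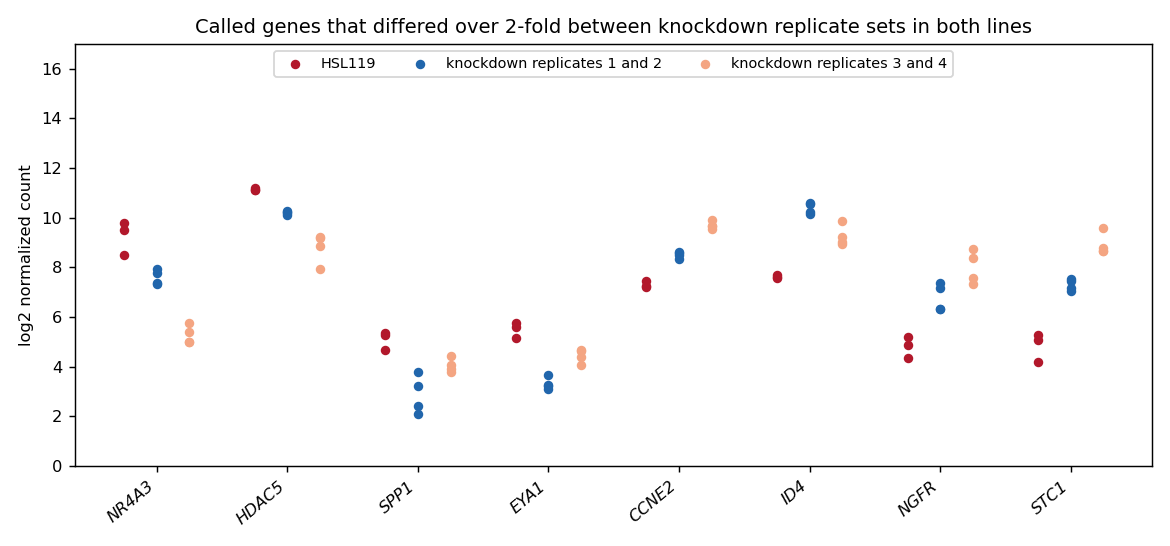
Log2 normalized count of each library for 8 of the 9 called genes in which knockdown replicates 3 and 4 (orange) differed by over 2-fold from replicates 1 and 2 (blue) in both lines, with HSL119 (red) on the left. HSL119 lies outside both sets in all 8 genes shown, at unequal distances from them.

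A further set of genes had like levels. The 90% interval of the difference, with the median gene not taken off, lay inside 1.5-fold either way for 143 genes (23.3%) on the deposited values and for 51 (8.29%) on every scale. Of the 143, 43 also passed the test of a difference on the deposited values, so that a small difference was measured there. Another 122 genes were neither called on the deposited values nor inside these limits, and nothing can be said of them at this precision. The most abundant of the 51 was PPP2R1A, the scaffold of phosphatase PP2A, at 12.93 ± 0.06 in HSL119, 13.11 ± 0.10 in KD1 and 13.17 ± 0.06 in KD2 (SD) over 3, 4 and 4 libraries. PPP2R1A was among the 43 genes that also passed the test of a difference on the deposited values. BIRC5, survivin, averaged 12.98 ± 0.09 in HSL119, 13.17 ± 0.06 in KD1 and 13.03 ± 0.12 in KD2 (SD), and ITGAV, an integrin subunit, 12.65 ± 0.15 in HSL119, 12.68 ± 0.03 in KD1 and 12.81 ± 0.07 in KD2 (SD). TAPBP, PLAT, FLNC and GSK3B were also among the 8 most abundant, with differences of -0.00, -0.06, 0.04 and -0.02.

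The knockdown lines were close to each other. HSL119 differed from KD1 in 357 genes (58.0%) and from KD2 in 376 (61.1%), while KD1 and KD2 differed in 9 (1.46%). KD1 and KD2 libraries of the same replicate set (replicates 1 and 2, or 3 and 4) deviated together, and with the replicate number as a block 25 genes differed between the lines. VIM passed the test between lines on every scale, with a KD1 minus KD2 difference of -1.80. IL1B, the cytokine IL-1 beta, had 4.88, 5.01 and 4.62 in HSL119, against 4.89, 5.35, 4.62 and 4.66 in KD1 and 6.71, 6.56, 5.62 and 6.23 in KD2. HSL119 overlapped KD1 there and lay below every KD2 library. FHL1, a LIM-domain protein, averaged 7.73 ± 0.17 in HSL119, 8.52 ± 0.17 in KD1 and 7.35 ± 0.56 in KD2 (SD), with the HSL119 mean between those of the lines. FGF13 averaged 5.19 ± 0.29 in HSL119, 6.05 ± 0.24 in KD1 and 4.92 ± 0.17 in KD2 (SD) with its HSL119 mean again between them. CACNA2D3, a calcium channel subunit, averaged 8.49 ± 0.03 in HSL119, 8.42 ± 0.09 in KD1 and 7.53 ± 0.24 in KD2 (SD), so that HSL119 was close to KD1 and its call rests mainly on KD2.

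The 4 CTL libraries, the study's control cells, entered only an alternative fit, as a further group for the spread, and were compared with no group. Their ranges place the difference for some genes, which were chosen after their values were seen. On the deposited scale the median gene was 0.41 above CTL in HSL119, 0.44 above in KD1 and 0.42 above in KD2. The deposited log2 values of CTL lie 0.13 to 0.18 below the log2 of their own linear values, while those of HSL119 lie 0.16 to 0.19 above. With the log2 of the linear values the median gene was 0.08 above CTL in HSL119, 0.28 above in KD1 and 0.27 above in KD2. For F3, CTL ranged from 11.12 to 11.21, between HSL119 (7.56 to 7.78) and the knockdown lines (12.88 to 13.95). For FGFR3, CTL ranged from 9.42 to 9.56, again between HSL119 (10.97 to 11.03) and the knockdown lines (7.004 to 8.59).

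For INHBA, HSL119 (4.88 to 5.36) overlapped CTL (5.01 to 5.38), and the knockdown lines were higher (8.05 to 9.45). With the log2 of the linear values, INHBA ranged from 4.71 to 5.17 in HSL119 and from 5.14 to 5.56 in CTL, so that the overlap was slight there. NSD1 was above its CTL range of 6.81 to 7.12 in both HSL119 and the knockdown lines, farther in HSL119. HLA-B was below its CTL range of 14.29 to 14.37 in both, farther in HSL119. The placements of F3, FGFR3, NSD1 and HLA-B were the same with the log2 of the linear values.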

How the data were processed

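The authors deposited 2 sets of normalized values per library, per the file headers: log2 counts, and linear counts that are treated here as a signal on the authors' own scale. Panel, instrument and normalization are not given in the sources used here. In every library the deposited linear signal could be written as whole multiples of a step, within 0.01, for 100% of values, and the edgeR 4.0.16 quasi-likelihood test (TMM scaling) was run on these recovered counts as an alternative. In HSL119 replicates 2 and 3 few values lie near 1 step, and a search that starts from the smallest value and needs 100 low values did not settle their step, so their recovery rests on higher values and is less secure. The deposited log2 values exceed the log2 of the linear block by 0.16 to 0.19 in HSL119 and by nothing in the knockdown lines, so that the scale was varied. Groups came from the sample titles. Genes with a linear value over 20 in at least 3 of 11 libraries were fitted with limma 3.58.1 in R 4.3.3 (3 groups, eBayes with trend), with HSL119 minus the mean of KD1 and KD2 as the contrast, two-sided p-values and Benjamini-Hochberg adjustment over 615 genes. The 5 scales were the deposited log2, log2 of the linear value plus 1, sample-median centring, quantile normalization and median-of-ratios scaling. Both tests were tried on simulated data with known changes. Same-numbered KD1 and KD2 libraries correlated at 0.60 to 0.77 across genes after group means were removed, in each of 4 pairs. Libraries of another number in the same set (replicates 1 and 2, or 3 and 4) correlated at 0.56 to 0.79. Those of the other set correlated at -0.78 to -0.56, so the correlations follow the sets rather than the single numbers. HSL119 and knockdown libraries of the same number correlated at -0.13 to 0.03. The replicate block tied libraries of the same number in all groups, HSL119 included. Its counts for HSL119 thus rest on a pairing that these correlations do not show. Total recovered counts and the number of libraries limit the precision.

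Genes were named by a rule: among called genes without overlap, the 12 largest differences each way and the 4 largest each way in each list, the 8 most abundant inside 1.5-fold on every scale, and the 5 largest differences between the knockdown lines. A few genes that the rule or the lists hold are not reported here. Other genes, such as CDH1, CLDN4, CREBBP, MTOR, PIK3CA, ETV4, INHBB and BMP7 and the members that were not called, were chosen after their values were seen. The members and the gene lists were chosen with earlier results of these data known. Of 758 symbols, 749 are current in RefSeq and 9 are older, such as HIST1H1C, and are printed as deposited.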

Additional observations from a re-analysis of the deposited data

Results flagged for a closer look

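In 6 of 262 combinations of gene and knockdown line, 1 of the 4 libraries lay far from the other 3. Chance marks about 1 in 20 groups of 4 exchangeable libraries, but these libraries lie in pairs, so that rate does not hold here. The log2 level of FOS was 5.97 in KD2 replicate 3, against a median of 10.35 in the other KD2 libraries, and that of THBS1 was 10.67 in the same library, against 11.71. PLAT was 12.64 there, against 12.21. VIM was 12.38 in KD2 replicate 4, against 12.94. In KD1, PDCD1LG2 was 8.74 in replicate 2, against 8.87, and PHGDH was 11.06 in replicate 3, against 11.11. The level of FOS also changed with the replicate set. Its HSL119 minus knockdown difference was -1.41 against replicates 3 and 4 alone, beside -3.29 with the knockdown pairs averaged, both on the deposited scale. The groups of 3 HSL119 libraries were too small for this rule.

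The difference between HSL119 and the knockdown depended on the line for 6 of the genes checked, because KD1 and KD2 themselves differed in the limma fit. The KD1 minus KD2 difference on the log2 scale was -1.80 for VIM and -1.40 for IL1B. It was 1.16 for FHL1, 1.13 for FGF13, 0.89 for CACNA2D3 and 0.50 for CDKN2C, a CDK inhibitor. VIM alone of these passed on every scale.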

How the results depend on the processing

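Over the alternatives, from 345 to 466 genes passed on a single scale and from 224 to 328 on every scale, and leaving out each library in turn gave 345 to 397 and 212 to 276. The balance of directions depended on the filter. With no filter, 225 genes passed on every scale, of which 215 were among the 273. These were 135 higher and 90 lower in HSL119, against 129 higher and 144 lower with the filter. Genes inside 1.5-fold numbered 118 to 196, and 113 to 144 with a library left out. HSL119 differed from KD1 in 301 to 443 genes (315 to 368 with a library left out) and from KD2 in 318 to 457 (336 to 379). With the replicate block, which also tied HSL119 libraries to knockdown libraries by number, 421 genes passed on the deposited scale and 328 on every scale. In that setting 164 genes lay inside 1.5-fold. The block changed no other count by over 1.5 times except that between the lines. Against knockdown replicates 1 and 2 alone 324 genes passed on every scale, 258 of them among the 273, and against replicates 3 and 4 alone 326, of which 254.

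The count between KD1 and KD2, 9 genes, was the least stable. It was 28 after quantile normalization, 23 with median of ratios, 18 with 10 added to the linear values, 1 with pairs averaged, 25 with the replicate block, 58 with all 15 libraries, 16 without a trend, 73 on replicates 1 and 2 and 57 on replicates 3 and 4, and 5 to 12 with a library left out, 5 without KD1 replicate 3.

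Of 3661 combinations of gene and alternative that were checked, 3571 kept their side of the threshold without a counted reversal. A change of direction was not counted where neither the main nor the alternative fit passed the threshold. Reversals so counted were confined to genes that were not called. After quantile normalization, which raises the median gene by 0.21, the difference on that scale was 0.39 for BIRC5, 0.26 for FLNC, 0.26 for ITGAV, 0.20 for PPP2R1A and 0.24 for TAPBP. On the deposited scale, against knockdown replicates 1 and 2, it was -0.37 for GRB7 and -1.15 for SNAI1. Against replicates 3 and 4 it was 0.15 for GATA3 and 0.11 for GSK3B. Among called genes, NOTCH3 (0.87) and CACNA2D3 (0.07) no longer passed against KD1 alone. The edgeR quasi-likelihood test on recovered counts called 402 genes, 203 higher and 199 lower, and these held all 273 genes called on every scale, in the same direction. Levels near a linear value of 20 limit the smallest folds that could be seen.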
